A study of Mus musculus with 6 samples.

Results

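Zfp423, Tle3, Nrip1, Rb1, Rbl1, Twist1 and Tcf21 were examined as 7 genes that hold back brown fat gene programs or keep cells out of them, chosen by name for that reported role. They are 7 of 21938 protein-coding genes of the GENCODE annotation of the mouse genome mm10. For each gene, the peaks whose summit lay from 50 kb before to 50 kb after the gene were taken from each of 6 peak lists, and a promoter peak was one with its summit within 1 kb of an annotated transcript start. Joined wherever peaks of different lists overlapped by at least 1 bp, these peaks formed 193 of the 194610 regions of the whole study. All 7 genes had peaks in every list.

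The peaks mark open chromatin, measured by ATAC-seq, in which a transposase cuts accessible DNA. The cells were stromal vascular fraction cells, a mixed culture from fat that holds adipocyte precursors, taken from male C57BL/6J mice 3 to 4 weeks old and differentiated for 7 days. Beige and white cultures both came from inguinal fat and brown cultures came from brown fat. Per the labels, all cultures had insulin at 5 µg/ml and IBMX at 0.5 mM. Beige and brown medium held dexamethasone at 5 µM, the thyroid hormone T3 at 1 nM and the PPARγ agonist rosiglitazone at 1 µM, whereas white medium held dexamethasone at 1 µM and neither of the last 2 agents. The study's methods give another insulin dose than the labels, and place dexamethasone and IBMX in a first, induction medium only. Beige medium then held just insulin, T3 and rosiglitazone and white medium just insulin. No such schedule is given for brown. Beige and white thus differed in medium, brown and beige in depot, and brown and white in both, which cannot be told apart in the last comparison. The brown libraries were also registered apart from the other 4 and are not described in the study's methods, so depot and any difference between runs cannot be told apart. Each group had 2 libraries. The study calls its ATAC-seq replicates biological, but neither it nor the labels say whether they came from separate mice or cultures, so the spread between them may be technical.

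White adipocytes store lipid, whereas brown and beige adipocytes burn it through uncoupling protein 1. Transcription factors such as EBF2 and the coregulators PRDM16 and PGC-1α drive the thermogenic genes. The genes studied here act against them at several levels. ZFP423 is a zinc finger protein that binds EBF2 and holds white adipocytes in their state. TLE3, a corepressor of the Groucho family, competes with PRDM16 at PPARγ. NRIP1, also called RIP140, is a corepressor of nuclear receptors that keeps oxidative genes low. RB1 and its relative RBL1, or p107, are pocket proteins that bind E2F factors and whose loss shifts precursors towards a brown fate. TWIST1 is a basic helix-loop-helix factor that binds PGC-1α and represses its targets. TCF21 is a helix-loop-helix factor of white fat precursors.

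The stretches of genome printed here are those on which the results turn. The first 4 had a peak in both libraries of at least 1 group and in no library of another. The next 3 had a peak in all 6 libraries and ranked far apart between groups. Each is the reference sequence of mm10, plus strand, 201 bp long with the summit in the middle, and a position such as -48.2 kb is the distance of the summit from the annotated 5′ end of the gene, negative before the gene and positive in the direction of transcription. The last is the 250 bases before the start of Rbl1 on its own strand, from the RefSeq promoter table of GRCm38.p6. Capitals mark matches on either strand to the letters named after the sequences, E-boxes left in lower case.
Tle3 -48.2 kb, chr9:61324045-61324245, intergenic, in beige and brown: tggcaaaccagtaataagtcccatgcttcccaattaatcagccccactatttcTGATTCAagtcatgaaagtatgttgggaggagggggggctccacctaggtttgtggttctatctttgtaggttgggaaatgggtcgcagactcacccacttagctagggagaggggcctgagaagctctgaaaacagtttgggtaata
Rb1 -48.6 kb, chr14:73374346-73374546, in an intron of Itm2b, in beige and brown: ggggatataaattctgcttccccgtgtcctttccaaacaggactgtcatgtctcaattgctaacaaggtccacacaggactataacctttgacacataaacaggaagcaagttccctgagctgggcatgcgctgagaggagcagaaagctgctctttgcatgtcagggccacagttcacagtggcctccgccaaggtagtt
Zfp423 +45.5 kb, chr8:87914044-87914244, intron, in beige and white: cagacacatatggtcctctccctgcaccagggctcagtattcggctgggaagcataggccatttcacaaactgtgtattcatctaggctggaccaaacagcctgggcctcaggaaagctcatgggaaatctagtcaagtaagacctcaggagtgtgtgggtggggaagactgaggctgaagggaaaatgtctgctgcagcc
Zfp423 +43.7 kb, chr8:87915822-87916022, intron, in brown alone: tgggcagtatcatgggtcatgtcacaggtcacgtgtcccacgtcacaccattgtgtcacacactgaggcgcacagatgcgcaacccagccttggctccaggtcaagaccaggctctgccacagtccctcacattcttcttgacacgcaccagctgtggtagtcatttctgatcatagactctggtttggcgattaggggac
Zfp423 -7.99 kb, chr8:87967488-87967688, intergenic, lowest in white: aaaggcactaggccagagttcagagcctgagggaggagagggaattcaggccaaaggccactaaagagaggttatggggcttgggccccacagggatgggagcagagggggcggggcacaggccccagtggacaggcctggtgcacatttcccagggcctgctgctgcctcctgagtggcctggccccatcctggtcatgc
Rb1 +116 kb, chr14:73209362-73209562, intron, lowest in white: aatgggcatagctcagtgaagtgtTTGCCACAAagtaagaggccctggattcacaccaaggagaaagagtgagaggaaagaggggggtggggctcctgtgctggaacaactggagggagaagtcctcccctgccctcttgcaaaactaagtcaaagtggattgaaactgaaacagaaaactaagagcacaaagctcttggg
Nrip1 -15.4 kb, chr16:76389078-76389278, in an intron of the noncoding gene Gm49587, highest in white: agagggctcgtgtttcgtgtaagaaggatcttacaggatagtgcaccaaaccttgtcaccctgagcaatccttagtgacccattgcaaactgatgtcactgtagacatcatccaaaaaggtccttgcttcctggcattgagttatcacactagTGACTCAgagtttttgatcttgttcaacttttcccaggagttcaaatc
Rbl1 promoter, chr2:157204535-157204784, minus strand, open in all 6: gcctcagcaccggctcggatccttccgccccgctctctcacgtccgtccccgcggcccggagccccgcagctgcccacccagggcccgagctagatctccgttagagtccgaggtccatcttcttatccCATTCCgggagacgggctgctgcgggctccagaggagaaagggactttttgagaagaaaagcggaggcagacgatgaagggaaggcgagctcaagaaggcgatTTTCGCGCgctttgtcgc

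Both strands were searched, and a place that matched on both was counted once. The letters were CANNTG for E-boxes, TTGCNNCAA for C/EBP factors, TGANTCA for AP-1, CCCNNGGG for EBF factors, TTTGGCGC and TTTCGCGC for E2F, TCAAGGTCA for estrogen-related receptors, TGACGTCA for CRE, GGAATG for TEAD, CCGGAAG for ETS and TTGGCA for nuclear factor I, with longer motifs of PPAR, the glucocorticoid receptor and CTCF. A match is a description of letters and not of binding. The Tle3 window at -48.2 kb and the Nrip1 window at -15.4 kb each held 1 AP-1 match, against a share of 21.2% of all 194610 windows of the same length. The Rb1 window at +116 kb held 1 C/EBP match, against 1.85% of all windows. The Rbl1 promoter held 1 E2F match and 1 TEAD match. The E2F letters were in 0.654% and the TEAD letters in 12.6% of the 32851 promoters of the table. The Zfp423 window at +43.7 kb held 3 E-boxes, the letters that helix-loop-helix factors bind, but 67.9% of all windows held at least 1. The Zfp423 window at -7.99 kb held none of the motifs searched, E-boxes included.

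Over all 193 windows, 31 held AP-1 letters (16.1%), 22 EBF letters (11.4% against 9.21% of all windows), 7 C/EBP letters (3.63%) and 125 E-boxes (64.8%). Of the 66 windows with a peak in all 6 libraries, 17 held AP-1 letters (25.8%) and 10 EBF letters (15.2%). The share over all regions with a peak in all 6 libraries was not taken. These counts therefore have no background of like regions. No window held the PPAR or glucocorticoid motif, which 0.946% and 0.328% of all windows held.

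The 6 lists held 109143 to 127490 peaks. The lists hold no read counts, so no interval or floor from counts could be given. The study states mapped reads for the beige and white libraries, fewer in both beige than in both white, and the sources used here give none for brown. The part of depth in the results was not tested. With 2 libraries against 2, an exact permutation test gives no two-sided p below 1 in 3, so no test between groups was run, and each count of genes or regions is read against the share over all genes or regions. By shared bases (Jaccard index), the beige pair overlapped by 0.671, above the range of 0.541 to 0.634 between libraries of different groups. The brown pair, at 0.627, and the white pair, at 0.581, lay within that range. Strength is given as a percentile, the rank of a peak's fold enrichment over local background within its own list, with 100 for the highest. Fold enrichment depends on that local background, and a locus with many neighbouring cuts can have a low fold at a high -log10 q. A lower rank from fewer cells with an open site and from a less open site in each cell cannot be told apart in such cultures.

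Promoter peaks at marker genes were counted in the same way. Of 10 adipocyte markers 9, of 10 brown adipocyte markers 7, of 10 progenitor markers 8, of 10 endothelial markers 7 and of 10 macrophage markers 3 had one in all 6 libraries, and an open promoter does not show that a gene was expressed. Over all protein-coding genes 63.9% had one in all 6, and the brown adipocyte and endothelial counts lay near that share. Which cells were present cannot be read from these counts. Ly6a, a progenitor marker, the macrophage genes Csf1r, Itgam, Cd163, Mrc1 and C1qa and the endothelial genes Cdh5 and Emcn had none in any. Ucp1, the gene of uncoupling protein 1, carried one in brown, at percentiles 9.12 and 4.23 in replicates 1 and 2, and none in the beige or white libraries. Promoter openness at Ucp1 therefore did not set the beige from the white libraries.

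A promoter peak was present in all 6 libraries at 6 of the 7 genes, all but Tcf21, against 63.9% of protein-coding genes. Among these genes Rbl1 and Nrip1 ranked highest and Zfp423 mostly lowest. The median over coding genes with a promoter peak was 84.7 to 89.7 by library. Rbl1 and Nrip1 lay above it in some libraries and below it in others. Rb1, Tle3, Twist1 and Zfp423 lay below it in every library.

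By fold enrichment, Rbl1 had the highest-ranking promoter peak of the 7 genes in both beige libraries, white replicate 2 and brown replicate 2. Nrip1 had it in white replicate 1 and brown replicate 1. By rank of -log10 q, Nrip1 lay above Rbl1 in every library, at 96.8 to 98.6 against 80.2 to 93.6. The values at Rbl1 were percentile 95 and 93.4 in beige, 80.5 and 88.6 in white and 86.6 and 93.6 in brown. Both beige values lay above both white values, by 9.67 points in the mean, short of the 10 points set for a difference. The brown values overlapped those of the white group and of the beige group.

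The Nrip1 promoter stood at 80.2 and 81.9 in beige, 91.5 and 82.4 in white and 90.5 and 93.1 in brown. Both brown libraries lay above both beige libraries, by a mean of 10.7 points. By rank of -log10 q, all 6 values lay from 96.8 to 98.6 and that difference was 0.877 points.

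The region over the start of Rb1 stood at 79.1 and 72.0 in beige, 76.4 and 59.6 in white and 83.4 and 87.0 in brown. Both brown libraries lay above the other 4, though the step from beige, 9.64 points, stayed short of 10. The brown mean was 85.2 ± 2.54, the beige mean 75.5 ± 5.04 and the white mean 68.0 ± 11.9 (SD, n = 2 each), 17.2 points between brown and white. Without white replicate 2 that difference was 8.75 points. In white replicate 2 the strongest Rb1 promoter peak lay at another annotated start, at +86.4 kb, with a percentile of 63.4.

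At the Tle3 start all 3 groups stood apart. Its percentile was 62.1 and 64.2 in beige, 58.3 and 27.0 in white and 75.5 and 75.8 in brown. Brown was highest and white lowest, with no overlap in any of the 3 comparisons. Beige exceeded white by 20.5 points, brown exceeded white by 33.0 and brown exceeded beige by 12.5. White replicate 2 was the low value: without it beige exceeded white by 4.86 points and brown exceeded white by 17.3. By rank of -log10 q, beige and brown were level, at 92.6 ± 1.54 and 92.3 ± 0.996 (SD, n = 2 each), above white at 76.5 ± 8.56 (SD, n = 2).

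Twist1 has a single annotated start, covered by a region 2240 bp wide. Its percentile was 49.2 and 56.7 in beige, 65.2 and 65.5 in white and 54.2 and 69.3 in brown. Both white libraries lay above both beige libraries, by a mean of 12.4 points. That difference was 3.24 points by rank of -log10 q.

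Zfp423 has 7 annotated starts over 298 kb, and the strongest promoter peak lay at different ones in different libraries. It stood at 39.6 and 38.3 in beige and at 43.0 in brown replicate 2 in the region at +15.7 kb, at an internal start, at 54.2 and 45.8 in white at an internal start at +155 kb, and at 35.6 in brown replicate 1 at the 5′ start. Region by region, the starts differed in order. The region over the 5′ start, at +0.534 kb, stood at 17.5 and 9.47 in beige, 6.14 and 1.15 in white and 35.6 and 38.9 in brown. Both brown libraries were above the other 4, with means of 37.3 ± 2.35 in brown, 13.5 ± 5.66 in beige and 3.65 ± 3.53 in white (SD, n = 2 each). By rank of -log10 q the same region had means of 73.2, 63.3 and 36.6, in the same order.

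The internal start at +155 kb ran the other way, with 8.78 and 15.9 in beige, 54.2 and 45.8 in white and 20.0 and 2.75 in brown. Both white libraries lay above the other 4, by 37.6 points over beige and 38.6 over brown. The start near +15.7 kb stood at 39.6 and 38.3 in beige, 21.8 and 29.0 in white and 2.58 and 43.0 in brown, with beige above white by 13.5 points and the brown libraries far apart.

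Tcf21 was the gene whose promoter was not open throughout. It had no promoter peak in the beige libraries or in white replicate 2. The strongest peak of each other library was weak, at percentile 22.4 in white replicate 1 and 14.3 and 34.2 in brown, with -log10 q of 3.09 to 5.04. Absence in both beige libraries with presence in both brown libraries was found at 0.346% of coding genes. These brown peaks lay 649 and 310 bp inside the gene and were not joined into 1 region. Brown replicate 2 also had a peak at -60 bp, before the gene, at percentile 29.6. With only peaks of q under 1e-05 kept, the promoter of Tcf21 had a peak in brown replicate 2 alone.

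**Figure D1:**
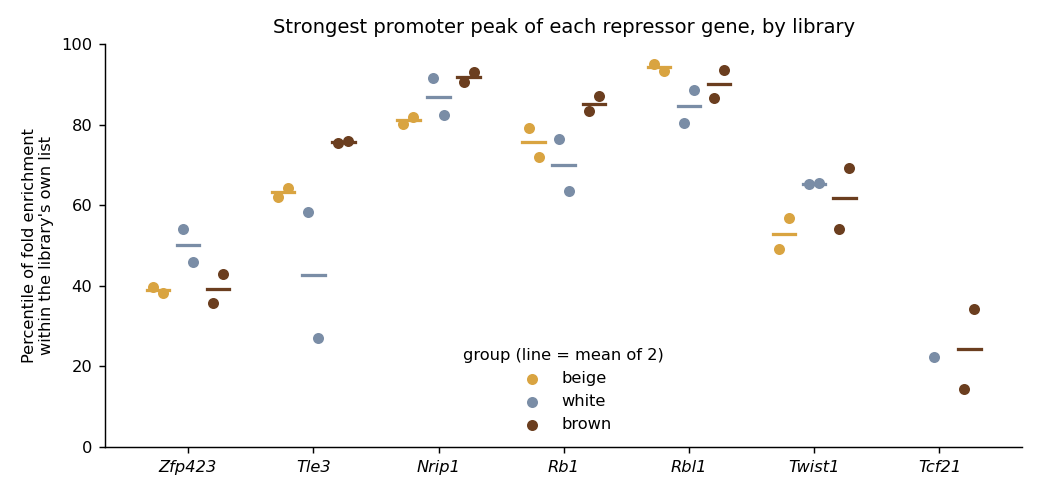
Percentile of fold enrichment of the strongest promoter peak (vertical axis, rank within each library's own list, 100 highest) for the 7 genes (horizontal axis), with 1 point per library coloured by group and a line at the mean of 2. Rbl1 and Nrip1 lie between 80.2 and 95, Tle3 runs from 27.0 in a white library to 75.8 in a brown one, and Tcf21 has no point in beige.

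Counted over the 6 genes, promoter percentiles without overlap and at least 10 points apart were found in beige above white at Tle3 (background 10.5% of 14021 coding genes with a promoter peak in all 6 libraries) and in white above beige at Zfp423 and Twist1 (5.57%). They were found in brown above white at Tle3 and Rb1 (11.7%), in white above brown at Zfp423 (4.92%), in brown above beige at Tle3 and Nrip1 (6.37%) and in beige above brown at none (4.93%). A count of 1 or 2 among 6 genes is too small to be read against such shares. The Zfp423 calls compare different starts, and by rank of -log10 q both turned, to 3.09 points higher in beige than in white and 13.0 points higher in brown than in white.

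The 7 windows together held 117 and 136 peaks in beige, 120 and 129 in white and 115 and 118 in brown. The group means were 126.5 ± 13.4, 124.5 ± 6.36 and 116.5 ± 2.12 (SD, n = 2 each), and the beige and white values overlapped. Per 100000 peaks of the list, the totals ran from 98.5 to 108 with no order by group.

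**Figure D2:**
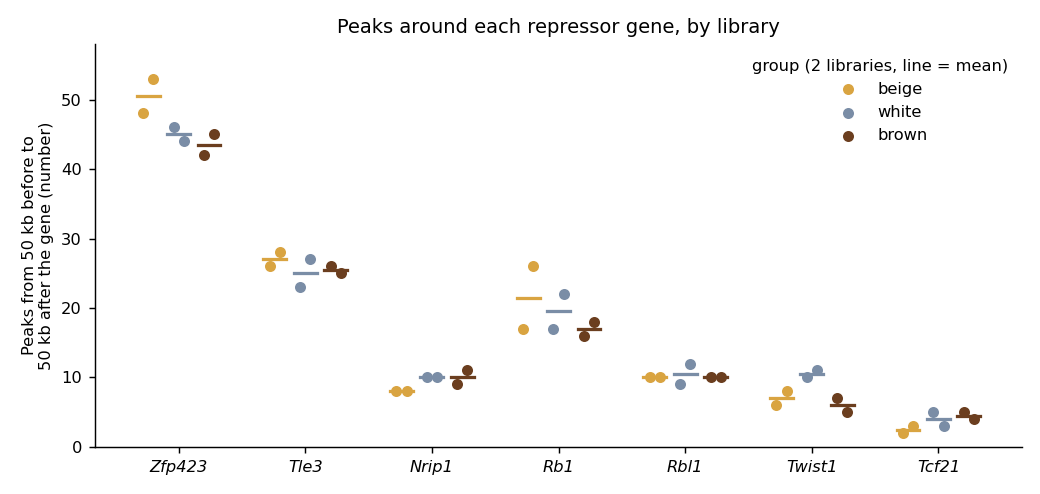
Number of peaks (vertical axis) from 50 kb before to 50 kb after each of the 7 genes (horizontal axis), with 1 point per library coloured by group and a line at the mean of 2. Zfp423 holds 42 to 53 peaks in every library and Tcf21 2 to 5.

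Zfp423 was the most densely covered locus of the 7 in number, with 48 and 53 peaks in beige, 46 and 44 in white and 42 and 45 in brown. At least 99.5% of coding genes had as few peaks or fewer in each library, in part because its window is 398 kb long. Its 10.6 to 13.3 peaks per 100 kb compared with a median of 6.65 to 7.99 over coding genes. Both beige counts exceeded those of white, as in 16.1% of coding genes, and those of brown, as in 26.8%. Tle3 had the densest window per length, with 15.7 to 19.2 peaks per 100 kb. Its counts were 26 and 28 in beige, 23 and 27 in white and 26 and 25 in brown, which overlapped.

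Twist1 had more peaks in white, 10 and 11, than in beige, 6 and 8, or brown, 7 and 5. Outside the 4 regions with a peak in all 6 libraries, however, no region of its window had a peak in both white libraries. The higher white counts thus did not come from added sites found in both white libraries. More peaks in both white than in both beige libraries were found at 10.3% of coding genes, and more in white than in brown at 21.8%. Nrip1 had 8 and 8 in beige, 10 and 10 in white and 9 and 11 in brown, so that white and brown both exceeded beige. Tcf21 had 2 and 3 in beige, 5 and 3 in white and 5 and 4 in brown, and brown exceeded beige. Brown exceeded beige at these 2 genes and in 4.53% of coding genes. No gene of the 7 had more peaks in both brown than in both white libraries, which 5.98% of coding genes had.

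Rb1 and Rbl1 had no such difference. Rb1 had 17 and 26 peaks in beige, 17 and 22 in white and 16 and 18 in brown, a within-group range wider than any step between groups. Rbl1 had 10 and 10, 9 and 12, and 10 and 10. Their windows also hold other genes. That of Rb1 takes in Rcbtb2, Itm2b and Lpar6, the last inside Rb1 itself, and that of Rbl1 takes in Tldc2, Samhd1 and Mroh8, so peaks there need not belong to the pocket protein genes.

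Of the 193 regions, 21 lay at a start of the gene itself, 73 in its introns, 63 between genes, 16 at starts and 13 in introns of other genes and 7 in exons. A peak in all 6 libraries was found in 66 regions (34.2%), against 30.2% of all regions. Another 75 regions (38.9%, against 37.2% of all regions) had a peak in 1 library only. White replicate 1 held 24 of them (32.0%), against 22.5% of all such regions. Single-library regions were weak, with a median -log10 q of 4.00. In regions shared by all 6 the median of the highest -log10 q was 29.3.

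Presence that followed the groups was rare. A peak in both beige and both brown libraries and in no white library was found in 2 regions (1.04%, against 1.25% of all regions), and in beige and white but not brown in 1 (0.518% against 1.16%). White and brown without beige held 1 region (0.518% against 0.243%). Beige alone had 3 (1.55% against 1.94%), white alone 1 (0.518% against 1.23%) and brown alone 2 (1.04% against 0.877%). These shares lay near those over all regions.

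The 2 regions shared by beige and brown were at the outer edge of their windows. The Tle3 region at -48.2 kb stood at percentiles 35.3 and 35.0 in beige and 40.5 and 42.2 in brown, with -log10 q of 12.8 to 18.6, and had no peak in white. The Rb1 region at -48.6 kb, inside Itm2b, stood at 22.8 and 40.4 in beige and 22.6 and 25.2 in brown, with -log10 q of 4.40 to 10.9. The Rb1 region thus ranked below the Tle3 region in 3 of these 4 libraries and above it in beige replicate 2. A window of 20 kb would hold neither of them.

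Zfp423 carried 8 of the 17 regions with a peak in both libraries of a group and in none of another. In beige and white but not brown, the intronic region at +45.5 kb stood at 27.5, 37.4, 39.4 and 34.6. Less than 2 kb away, at +43.7 kb, another intronic region was found in brown alone, at 26.6 and 42.5. The pair therefore showed peaks of like rank at adjoining sites in inguinal and in brown fat cultures.

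Next to the 5′ start of Zfp423, the intronic region at +1.48 kb had peaks in white, at 27.7 and 19.8, and in brown, at 1.14 and 0.365, and none in beige. The low brown ranks came with -log10 q of 6.24 and 4.23. Beige alone had the intronic region at +212 kb, at 40.4 and 61.4, and one before the gene at -16.2 kb, at 16.7 and 11.2. The first of these ranked highest of the 6 regions found in 1 group alone.

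The other 3 of Zfp423 were intronic and had a peak in 1 library of the remaining group. At +267 kb the percentiles were 23.2 and 27.4 in beige and 0.625 in brown replicate 2. At +206 kb they were 5.58 and 32.8 in beige and 30.9 in brown replicate 2. At +124 kb they were 57.3 and 55.1 in white and 26.9 in beige replicate 2, so this region was open mainly in white.

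Tle3 carried 6. Besides that at -48.2 kb, it had an intronic region at +5.69 kb in beige alone, at 1.21 and 4.21, a region at an internal start at +30.0 kb in white alone, at 6.88 and 13.7, and an intronic region at +41.9 kb in brown alone, at 12.3 and 2.02. All 3 were among the weaker peaks of their lists. At -25.2 kb the percentiles were 69.7 and 44.0 in beige and 23.0 in brown replicate 2. Close to the start, at -0.805 kb, they were 0.691 and 0.724 in beige and 5.25 in white replicate 2.

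Nrip1 had 1 such region, at -23.0 kb, with 62.6 and 72.9 in white, 35.3 in brown replicate 2 and no peak in beige. The window of this region held AP-1 letters. Rb1 had, beside that in Itm2b, the internal start at +86.4 kb, with 42.8 and 63.4 in white, 27.3 in beige replicate 2 and no peak in brown. Rbl1, Twist1 and Tcf21 had none.

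**Figure D3:**
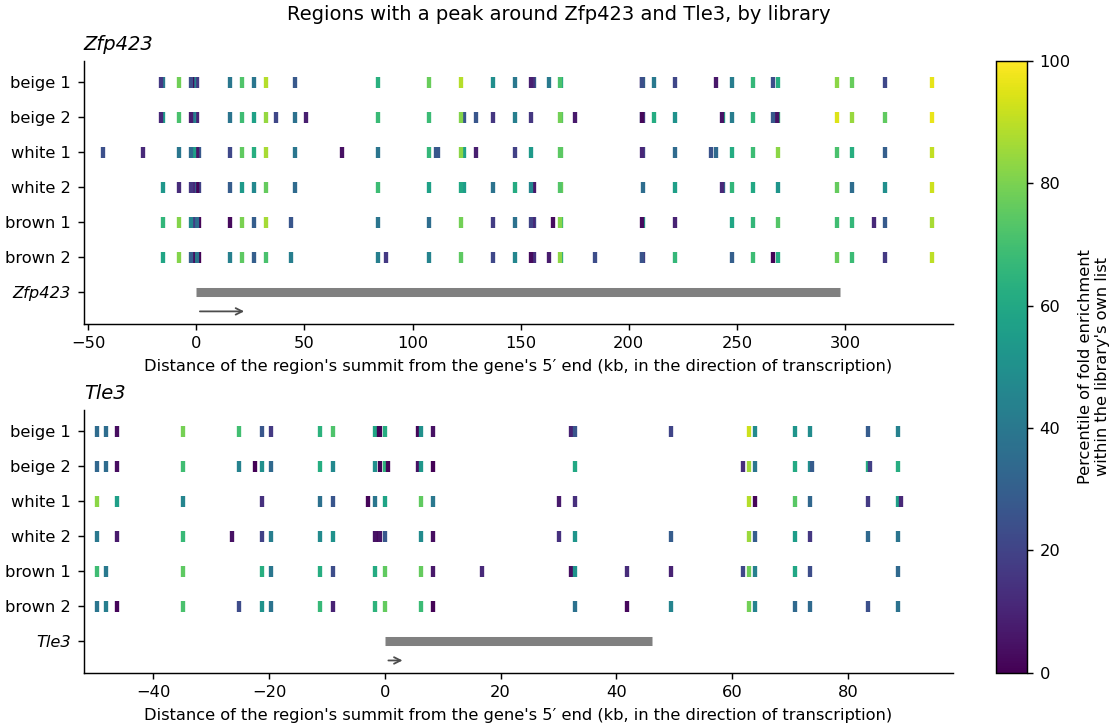
Regions with a peak around Zfp423 and Tle3, each tick at the distance of the region's summit from the gene's 5′ end (horizontal axis, kb) in the row of the library, coloured by percentile within that library's own list. The grey bar is the gene and the arrow its direction. Most ticks line up over all 6 rows, and at Zfp423 the tick at +45.5 kb in beige and white gives way to one at +43.7 kb in brown.

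In the 66 regions with a peak in all 6 libraries, differences of rank were more frequent than differences of presence. Regions whose percentiles did not overlap and lay at least 10 points apart numbered 17 with beige above white (25.8%, against 17.0% of the 58720 such regions of the whole study) and 9 with white above beige (13.6% against 12.9%). Brown lay above white in 15 (22.7% against 13.9%) and below it in 14 (21.2% against 15.7%). Brown lay above beige in 8 (12.1% against 11.5%) and below it in 12 (18.2% against 18.3%). The median percentile of the 66 regions was 57.4 to 64.0 by library, and that of all such regions 72.0 to 75.2. The comparisons with white share the white libraries, so their counts are not independent of each other. Counts for single genes, given below, rest on 2 to 24 regions and stand against these same shares.

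By rank of -log10 q, 13 of the 17 regions and all 15 regions with beige or brown above white again showed no overlap in that direction, as did 6 of 9 and 11 of 14 in the reverse directions. Of the 8 with brown above beige, 1 did, and of the 12 with beige above brown, 11 did. None turned.

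**Figure D4:**
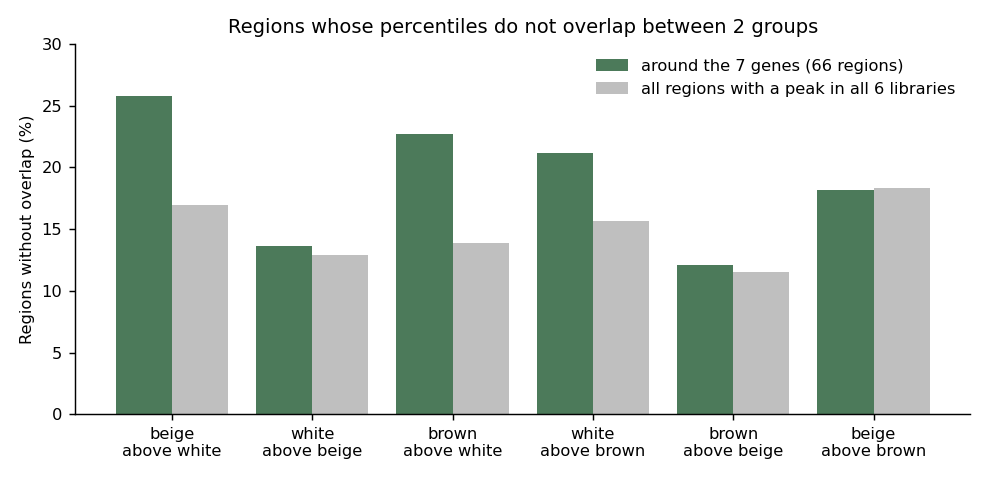
Share of regions (vertical axis, percent) whose percentiles do not overlap between 2 groups, for the 66 regions around the 7 genes (green) and all regions with a peak in all 6 libraries (grey), in each of 6 directions (horizontal axis). The gaps are widest for beige above white, 25.8% against 17.0%, and brown above white, 22.7% against 13.9%, and the shares for beige above brown are 18.2% and 18.3%.

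Tle3 leaned one way. Of its 15 shared regions, beige lay above white in 7 and below it in 1, and brown lay above white in 6 and below it in 2. Over all such regions the shares were 17.0%, 12.9%, 13.9% and 15.7% in the same order. Against each other, brown and beige were even, at 4 and 4. The 6 regions with both beige and brown above white lay at -34.9, -21.1, -11.2, -1.75, -0.031 and +63.9 kb, so that 5 were before or at the start.

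At -21.1 kb the percentiles were 26.7 and 49.9 in beige, 13.7 and 19.9 in white and 62.7 and 51.5 in brown. At -1.75 kb they were 59.2 and 49.9 in beige, 39.2 and 4.86 in white and 61.3 and 64.6 in brown. At +63.9 kb they were 47.9 and 39.4, 1.38 and 29.3, and 43.5 and 44.6 in that order. The lower white library was replicate 2 at the second of these sites and replicate 1 at the other 2. The window at -21.1 kb, which held matches for C/EBP, EBF and 3 E-boxes, was the one where brown also lay above beige under both rankings.

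The exceptions at Tle3 were as wide. At -49.8 kb white stood at 82.7 and 39.9 over beige at 34.8 and 32.9, by 27.4 points, but by 6.03 points without white replicate 1. At -9.00 kb brown stood lowest, at 23.1 and 9.66, under 72.0 and 47.1 in beige and 26.2 and 51.1 in white. The strongest Tle3 region, beyond the gene at +62.9 kb, ranked from 78.2 to 92.4 in all libraries.

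At Zfp423 the largest difference of any of the 66 regions lay before the gene. The intergenic region at -7.99 kb, 1061 bp wide, stood at 78.5 and 71.1 in beige, 39.3 and 12.3 in white and 81.6 and 81.5 in brown. Beige exceeded white by 49.0 points and brown exceeded white by 55.8, and without any 1 library the differences were at least 35.5 and 42.2. By rank of -log10 q they were 48.2 and 52.2 points. Beige and brown lay within 10 points of each other, with means of 74.8 ± 5.27 and 81.6 ± 0.0716 (SD, n = 2 each).

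Across all of Zfp423, with the region at -7.99 kb included, the regions went in several directions. Of 24 shared regions, beige lay above white in 5 and below in 2, brown above white in 3 and below in 6, and brown above beige in 2 and below in 5. Over all such regions the shares were 17.0%, 12.9%, 13.9%, 15.7%, 11.5% and 18.3% in the same order, and these counts lay near them. Beige was highest at +108 kb, with 77.1 and 68.0 over 66.7 and 57.2 in white and 35.3 and 44.8 in brown. It was also highest beyond the end of the gene at +303 kb, with 76.6 and 84.5 over 62.6 and 35.2 in white and 66.5 and 68.0 in brown. The strongest region of the locus, at +340 kb, ranked from 87.0 to 96.5 in every library.

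**Figure D5:**
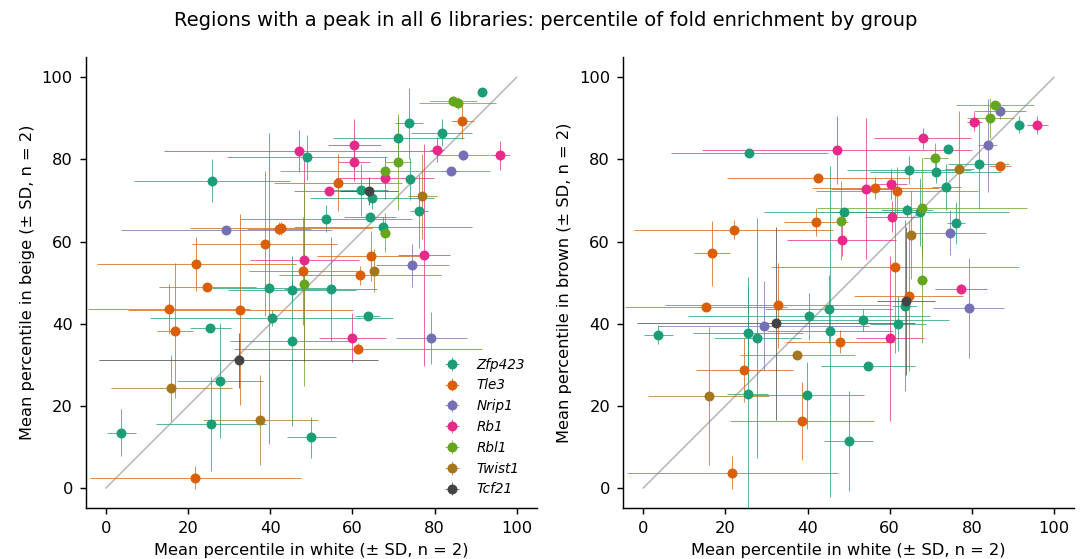
Mean percentile in beige (left, vertical axis) and brown (right, vertical axis) against white (horizontal axis) for the 66 regions with a peak in all 6 libraries, coloured by gene, with bars of 1 SD (n = 2) and a line of equality. The Zfp423 region at -7.99 kb lies at 25.8 in white against 74.8 in beige and 81.6 in brown, and most Tle3 regions at low white values lie above the line.

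Nrip1 ran against Tle3 before its start. The region at -15.4 kb stood at 32.1 and 41.1 in beige, 73.1 and 85.3 in white and 52.5 and 35.3 in brown. White exceeded beige by 42.6 points and brown by 35.3, and by 36.4 and 26.6 without the library that mattered most. The intronic region at +31.9 kb likewise stood highest in white, at 80.9 and 68.2, over 57.9 and 50.5 in beige and 66.1 and 58.4 in brown. The exonic region at +79.9 kb, in the coding exon, stood at 63.6 and 62.2 in beige, 11.1 and 47.4 in white and 47.2 and 31.8 in brown. At -35.7 kb, where the window held AP-1 letters at 2 places, all 6 values lay from 75.3 to 91.4 and the groups did not differ by 10 points.

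The window of Rb1 had beige above white in 4 of 10 shared regions and below in 2, and brown above white in 5 and below in 2. Every region below white lay at a start of Lpar6 or in an intron of Rcbtb2. Of those above white, the region at +163 kb, called for beige only, lay at a start of Rcbtb2. The others lay in introns or at the start of Rb1. The intronic region at +116 kb stood at 85.7 and 78.5 in beige, 23.8 and 70.4 in white and 88.1 and 76.4 in brown. White replicate 1 was the low value, and without it beige exceeded white by 11.7 points and not by 35.0. At +32.0 kb, also in an intron, the values were closer within groups, at 82.5 and 76.1 in beige, 63.2 and 57.6 in white and 76.7 and 71.6 in brown. The start of Lpar6, a receptor gene inside Rb1, ran the other way, at 78.5 and 83.5 in beige, 97.7 and 94.2 in white and 89.9 and 86.8 in brown, and was the highest-ranking region of the locus in white.

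Rbl1 had the fewest differences for its number of shared regions. Of 6, none differed between beige and white or between brown and beige, and brown lay above white in 1 and below it in 1. With 6 regions, such counts are too small to be read against the shares over all regions. Both differences were away from its start. The intronic region at +34 kb stood at 47.5 and 48.8 in white and 58.4 and 71.9 in brown, and one in an untranslated region of Samhd1 stood at 67.1 and 68.7 in white and 61.5 and 39.9 in brown. The start of Samhd1 ranked from 78.9 to 94.8.

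Twist1 had 4 shared regions. White lay above beige in 2 of them, the promoter and a site at +9.91 kb, where beige stood at 8.92 and 24.4, white at 27.6 and 47.4 and brown at 32.0 and 32.7. By rank of -log10 q neither was called, and beige lay above white in 1 region, at +8.94 kb, by 16.9 points. The strongest, at +23.9 kb, ranked from 63.7 to 87.8 with all groups overlapping. Tcf21 had 2, both intergenic. That at +42.1 kb stood at 70.0 and 74.8 in beige, 69.0 and 59.0 in white and 58.4 and 32.9 in brown, lowest in brown. That at +6.23 kb ranged from 8.36 to 56.8 with the groups overlapping.

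Relatives and partners of these genes served as comparison. Of 11 relatives, which include other Groucho, pocket and helix-loop-helix genes, 9 had a promoter peak in all 6 libraries and the other 2 in some. All 12 genes of corepressor and pocket protein partners and all 10 other genes reported to repress the brown program had one. Of 12 activators that these repressors oppose 11 had one, the exception being Ucp1. Each of these 4 lists lay above the 63.9% of coding genes, and apart from Ucp1 no gene of these lists had a promoter peak in both libraries of a group and in neither of another.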

How the data were processed

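ATAC-seq was run on 2 beige, 2 white and 2 brown adipocyte cultures. Per the study's methods, the authors trimmed the reads, aligned them to mm10 with BWA and called peaks with MACS2 at a q value under 0.05. Those methods do not describe the brown libraries, for which the submitters' processing notes name the same build, aligner and caller. Each library has its own list. The deposited lists give each peak's fold enrichment as a ratio over local background, the -log10 of its p-value and q-value, a score that follows the -log10 q-value, and its summit. The score was not used. The authors' deepTools setting drops reads marked as duplicates; whether this was done before peak calling, and how mitochondrial reads were handled, is not given in the sources used here. Where several summits shared an interval, the interval was counted once, at its summit of highest -log10 q. Replicates were not pooled. The lists hold no read counts, and the mapped reads that the study states for beige and white were not used here.

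Groups came from the labels. A percentile is the rank of fold enrichment within a list. Intervals overlapping by at least 1 bp were joined into regions. Groups were called not overlapping where both libraries of one lay above both of the other and the means were at least 10 points apart. All coding genes and all regions gave the background shares. Genes and starts were those of GENCODE M21, and 1 gene of the comparison lists was matched through an older symbol. All 7 genes were described in every library, with every region open in both libraries of a group and in none of another. Genes of the other lists were named where a promoter peak was in both libraries of a group and in neither of another, or in no library. The 7 genes, the lists and the motifs were chosen with earlier results of these data known. The alternatives were stricter q limits, equally long lists, other overlaps, windows, promoter distances and starts, ranking by -log10 q and leaving out each library. Python 3.11.15, pandas 2.3.3 and bedtools 2.31.1 were used, and the steps were tested on simulated lists.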

Additional observations from a re-analysis of the deposited data

How the results depend on the processing

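No paired analysis was possible because the groups were compared without a test and the labels tie no library of a group to one of another. Under the alternatives, 6 of the 7 genes kept a promoter peak in all libraries used, except with a promoter distance of 500 bp. At that distance Twist1 had none in beige replicate 1, where its only promoter peak lay at -674 bp from the start. The 8 promoter differences without overlap kept their sign in 99 of 103 values. The exceptions were Rb1 between brown and white, at -7.52 points with a promoter distance of 3 kb, and by rank of -log10 q Tle3 between brown and beige, at -0.307, and Zfp423 between beige and white, at 3.09, and between brown and white, at 13.0 points. With a promoter distance of 500 bp Twist1 gave no promoter difference between beige and another group, for want of a peak in every library compared.

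With q under 1e-05, the regions not overlapping numbered 5 with brown above beige, 5 with white above beige and 7 with white above brown, brown alone held 1 region and white and brown without beige 0. Mean peaks were then 100.5 in beige, 94 in white and 89 in brown, and the mean over libraries of the median promoter percentile of the 7 genes was 63.3, against 69.9 as reported and 85.4 by rank of -log10 q. Equally long lists gave 112, 113 and 114 peaks, which left no order by group, and 14 regions with brown above beige. By rank of -log10 q brown lay above beige in 1 region. A window of 20 kb gave 97, 93.5 and 90.5 peaks in beige, white and brown and 0 regions in beige and brown without white. A window of 100 kb gave 199, 192 and 174 peaks, 298 regions, 100 of them in all 6 libraries, 4 in beige and brown without white, 5 in white alone, and 14 with brown above beige and 16 with white above beige. Overlap of 0.5 of both peaks moved no count by more than 1.5 times.

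Leaving out 1 library loosens each requirement on its group. Regions without overlap then ran from 12 to 22 for beige above brown, 17 to 28 for beige above white, 8 to 15 for brown above beige, 15 to 23 for brown above white and 9 to 16 for white above beige. Regions in beige alone ran from 3 to 20, highest without beige replicate 1, in white alone from 1 to 26, highest without white replicate 2, and in brown alone from 2 to 12, highest without brown replicate 2. Those in beige and brown without white ran from 1 to 9, in beige and white without brown from 1 to 3 and in white and brown without beige from 0 to 2. The causes of these shifts were not tested. Presence in 1 group alone thus rested on both libraries being required, and a missing peak says only that it did not pass the caller's limit at that library's depth, which the lists do not give.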
